A study of Mus musculus with 4 samples.

Results

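The 9 genes described here are 2 coreceptors of the GDNF family (Gfra1 and Gfra2), 3 ligands of that family (Gdnf, Nrtn and Artn), 2 neurotrophins (Ntf3 and Bdnf), the neurotrophin receptor p75 (Ngfr) and the secreted factor Ndnf. They were chosen by gene symbol alone from a table of 17906 genes with a value, and all 9 have a row. The symbols were picked when earlier results of these data were known, among them results of the comparison between the groups, so no count over the 9 genes is support for a pattern. RNA was sequenced from MLE12 cells, a mouse lung epithelial line that keeps traits of alveolar type II cells, in 2 control and 2 lamin B1 KD libraries. In the study the knockdown was made by lentiviral shRNA and lamin B1 is a protein of the nuclear lamina. Neither the shRNA of the lamin B1 KD libraries nor the construct of the control cells is named in the labels. Both groups were grown with puromycin at 2 µg/ml.

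The question behind the experiment was how loss of lamin B1 changes gene expression. The only value per gene used here is the authors' mean normalized count over the 4 libraries, that is, the mean of read counts divided by a size factor for each library. This mean pools control and lamin B1 KD cells, so it gives the abundance of each transcript in the experiment as a whole and no comparison between the groups. The fold changes and p-values in the same table are the authors' own comparison and were not used. Lmnb1, the targeted gene, had a mean of 3946 over the 4 libraries, and this mean cannot serve as a check of the group labels.

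GDNF, neurturin and artemin are secreted dimers of one family. Each binds a GFRα coreceptor that is anchored to the outer face of the membrane, and the pair then engages the receptor tyrosine kinase RET. The neurotrophins BDNF and neurotrophin 3 are made as longer precursors and signal through Trk kinases, while p75 binds all neurotrophins. These factors are best known from neurons, enteric nerve and kidney development, and in the lung they are studied mainly for airway innervation and tumors.

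The table spans a wide range of levels, and the 9 genes are spread over most of it. The median over all genes was 277, with quartiles of 10.1 and 1321. The median of the 9 genes was 39.7, and 3 of the 9 (Ndnf, Gdnf and Gfra1) were at or above the median of all genes. Ndnf ranked 1895th of 17906 with a mean of 3027, above 89.4% of genes. Gdnf followed with 394 (above 54.1% of genes) and Gfra1 with 284 (above 50.2%). Gfra1 is thus close to the middle of the table, and among protein coding genes alone, whose median was 586, it was above 38.2%. At the other end were Gfra2 with a mean of 5.37 and Artn with 4.86, above 18.6% and 17.5% of all genes.

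**Figure D1:**
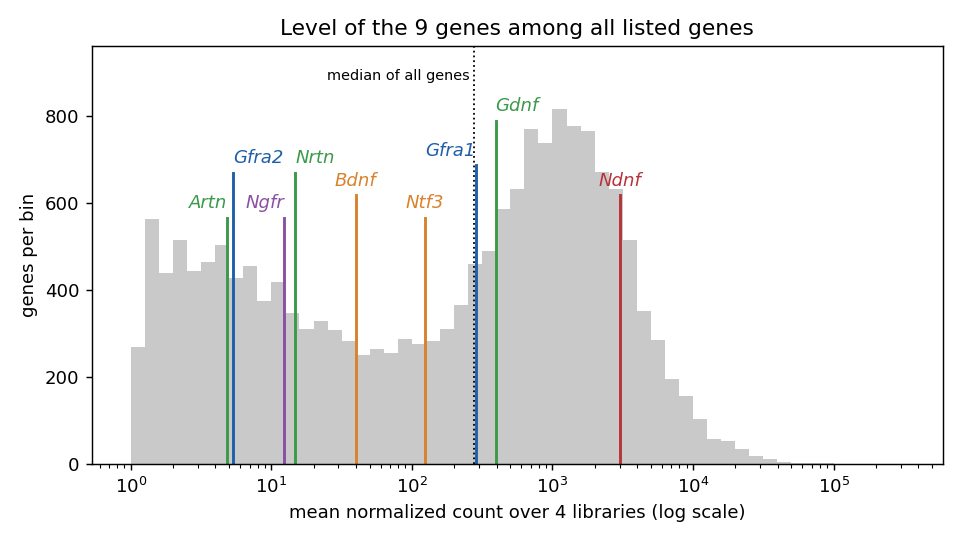
The x axis is the mean normalized count over the 4 libraries on a log scale, grey bars count all 17906 genes and coloured lines mark the 9 genes (blue coreceptors, green GDNF family ligands, orange neurotrophins, purple p75, red Ndnf). Ndnf lies in the upper hump of abundant genes, Gdnf and Gfra1 lie next to the median of 277 (dotted) and the other 6 genes lie below it.

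Regulatory sequence is shown for the 3 genes on which the description of levels turns most. These are Gfra1 and Gdnf, the abundant coreceptor and its ligand, and Ntf3. Of the 6 genes with reads recovered per library (below), Ntf3 had the most pairs of libraries that differed beyond counting error. Each run of 300 bases surrounds a RefSeq transcription start on GRCm38.p6, written 5′ to 3′ on the strand of the gene. Capitals mark any of 3 core promoter motifs on either strand, GGGCGG (the GC box), TATAAA (the TATA box) and CCAAT (the CCAAT box).
Gfra1, chr19:58455349-58455648, minus strand: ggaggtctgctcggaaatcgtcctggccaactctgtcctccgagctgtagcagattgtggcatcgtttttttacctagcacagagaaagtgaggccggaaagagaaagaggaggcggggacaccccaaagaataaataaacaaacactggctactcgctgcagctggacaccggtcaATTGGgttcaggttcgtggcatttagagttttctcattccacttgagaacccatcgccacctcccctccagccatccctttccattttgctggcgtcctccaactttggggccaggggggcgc
Gdnf, chr15:7809798-7810097, plus strand: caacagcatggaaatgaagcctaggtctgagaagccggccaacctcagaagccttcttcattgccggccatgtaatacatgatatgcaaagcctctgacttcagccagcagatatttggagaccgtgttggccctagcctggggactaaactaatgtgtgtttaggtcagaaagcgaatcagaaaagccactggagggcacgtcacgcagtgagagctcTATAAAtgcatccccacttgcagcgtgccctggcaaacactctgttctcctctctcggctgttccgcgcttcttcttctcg
Gdnf, chr15:7813477-7813776, plus strand: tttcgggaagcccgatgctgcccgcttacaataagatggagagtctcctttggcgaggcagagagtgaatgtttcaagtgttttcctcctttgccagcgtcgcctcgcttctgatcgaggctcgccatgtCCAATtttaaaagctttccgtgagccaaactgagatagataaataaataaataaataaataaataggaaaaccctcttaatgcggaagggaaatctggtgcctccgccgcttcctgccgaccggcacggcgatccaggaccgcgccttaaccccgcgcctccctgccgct
Ntf3, chr6:126166695-126166994, minus strand: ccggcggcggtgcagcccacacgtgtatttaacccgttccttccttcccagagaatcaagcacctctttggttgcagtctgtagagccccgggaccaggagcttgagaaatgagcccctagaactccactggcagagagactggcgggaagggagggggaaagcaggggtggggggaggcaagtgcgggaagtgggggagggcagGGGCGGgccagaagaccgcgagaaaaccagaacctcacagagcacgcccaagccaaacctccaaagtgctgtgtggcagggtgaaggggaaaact
Ntf3, chr6:126164911-126165210, minus strand: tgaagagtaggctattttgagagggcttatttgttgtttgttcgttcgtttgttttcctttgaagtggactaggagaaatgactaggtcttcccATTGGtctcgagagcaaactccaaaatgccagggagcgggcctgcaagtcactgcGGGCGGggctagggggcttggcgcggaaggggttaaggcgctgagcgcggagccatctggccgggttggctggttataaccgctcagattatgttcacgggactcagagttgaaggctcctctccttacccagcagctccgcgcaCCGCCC

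The upstream start of Gdnf holds the only TATAAA among the 15 windows of the 7 genes found in the promoter table (13.6% of all 32851 windows in the table hold one). This window lies upstream of the Gdnf annotation used here for position and length, which starts at 7810846. Both Ntf3 windows hold GGGCGG, as do 7 of the 15 windows against 35.7% of all windows. The single Gfra1 window holds none, and it holds 1 CCAAT motif on the opposite strand. CCAAT occurs in 3 of the 15 windows and in 37.4% of all windows. The number of CpG dinucleotides in the 15 windows ran from 2 in a Bdnf window to 28 in the Nrtn window, beside a median of 7 and an upper quartile of 20 over all windows. The Gfra1 window had 12, the Gdnf windows 11 and 22, and the Ntf3 windows 12 and 17. Gfra2 and Ndnf were not matched in the promoter table. A motif match is a description of the letters only.

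Of the 2 coreceptors, Gfra1 was the abundant one. Gfra1, which encodes GFRα1, the preferred coreceptor of GDNF, sits on chromosome 19 of GRCm38 (58235604 to 58455909, minus strand), with 9 annotated transcripts. Its mean of 284 rests on at least 1105 reads in all, which gives a 95% Poisson interval of 268 to 301 for counting error alone. This interval leaves out the spread between libraries, which was wide for Gfra1 in every set of reads that gives this mean (below). The pooled mean therefore need not describe any single library. Gfra2, which encodes the preferred coreceptor of neurturin, sits on chromosome 14 (70890120 to 70979838, plus strand). Its mean of 5.37 rests on 22 reads (3.36 to 8.13). Per kilobase of exon, the scale on which genes of unequal length can be compared, the level of Gfra1 was 51.9 and that of Gfra2 was 1.52. The ratio of these levels was 34.2 (95% Clopper-Pearson interval on the reads, 22.5 to 54.8), and it was 39.6 or 40.4 when the longest or the median transcript length was used. Exons of Gfra1 share 416 bases with the antisense gene Gm16277. The strand setting of the counting is unknown here, so that part of the Gfra1 value is uncertain.

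Among the ligands of the GDNF family, Gdnf was the most abundant, then Nrtn, then Artn. Gdnf, on chromosome 15 (7810846 to 7837575, plus strand), had a mean of 394 (375 to 414) from at least 1589 reads. Nrtn, which encodes neurturin, sits on chromosome 17 (56751325 to 56757530, minus strand) and had a mean of 14.8 (11.2 to 19.1) from 58 reads. Artn, which encodes artemin, the ligand that prefers the coreceptor GFRα3, sits on chromosome 4 (117926162 to 117929763, minus strand) and had a mean of 4.86 (2.97 to 7.5) from 20 reads. Per kilobase the level of Gdnf was 107, that of Nrtn 14.4 and that of Artn 2.02. Gdnf was 7.42 times as high as Nrtn on this scale (5.71 to 9.82) and 53.1 times as high as Artn (34.2 to 87.1), or 21.8 times with the median transcript length. Nrtn was 7.15 times as high as Artn per kilobase (4.24 to 12.6), or 2.93 times with the median transcript length, whereas by mean level they differed by a factor of 3.04, since the exons of Nrtn sum to 1023 bases and those of Artn to 2405.

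GFRα1 and GDNF bind each other, and their genes were the most abundant of the listed coreceptors and ligands of the family. The level of Gdnf per kilobase was 2.07 times that of Gfra1 (1.91 to 2.23), but this order rests on the length chosen. With the median transcript length, which is 1937 bases for Gfra1 and 3674 for Gdnf, the ratio was 0.73. Both ratios also pool libraries between which the reads of Gfra1 were uneven. Ret, the receptor kinase of the family, had a mean of 212 and a level of 31.3 per kilobase.

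The neurotrophins were lower than Gdnf, and Ntf3 exceeded Bdnf. Ntf3, which encodes neurotrophin 3, sits on chromosome 6 (126101412 to 126166910, minus strand) and had a mean of 124 (113 to 136) from 482 reads. Bdnf, which encodes brain-derived neurotrophic factor, sits on chromosome 2 (109674700 to 109727007, plus strand) with 11 annotated transcripts and had a mean of 39.7 (33.8 to 46.3) from 161 reads. Per kilobase, the level of Ntf3 was 72.5 and that of Bdnf 6.39, a ratio of 11.4 (9.48 to 13.7), or 8.74 with the median transcript length. This ratio pools libraries whose Ntf3 reads differed. By single library, from the reads recovered from the digits of the means, it ran from 3.94 to 32.6 per kilobase, and without the library that was highest in Ntf3 it was 7.45. The antisense gene Gm45346 shares 896 exonic bases with Bdnf, so the value of Bdnf is uncertain to that extent. Ngfr, the gene of p75, sits on chromosome 11 (95568818 to 95587735, minus strand). It had a mean of 12.3 (9.13 to 16.3) from 49 reads and a level of 3.58 per kilobase, so Ntf3 was 20.3 times as high as this receptor per kilobase (15.1 to 27.8) and Bdnf 1.78 times as high (1.29 to 2.51), or 2.84 times with the median transcript length.

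Ndnf, which encodes a secreted glycoprotein first described in neurons, was the highest of the 9 genes on either scale. It sits on chromosome 6 as well (65671590 to 65712326, plus strand), and its mean of 3027 corresponds to between 11306 and 13006 reads in all. Its level per kilobase was 299, which is 2.79 times that of Gdnf (2.65 to 2.94), or 5.31 times with the median transcript length, and above 75.2% of all genes on that scale. Its exons sum to 10114 bases, so it stood higher by mean level than per kilobase.

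The order of the 9 genes per kilobase was Ndnf, Gdnf, Ntf3, Gfra1, Nrtn, Bdnf, Ngfr, Artn and Gfra2. Of the 8 neighbouring pairs in this order, the counting intervals overlapped in 2, Ngfr with Artn and Artn with Gfra2, so these levels are not ranked against each other. With the median transcript length Artn (4.93) and Gfra2 (3.63) both stood above Ngfr (3.58). The other 6 pairs did not overlap, but the intervals hold counting error alone and the spread between libraries is not in them. The median level per kilobase over 17683 genes with a length was 71.9, which puts Ntf3, at 72.5, next to the middle of all genes. Gfra1 ranked below Ntf3 per kilobase (ratio 0.72, from 0.64 to 0.80) and above it with the median transcript length (1.65).

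**Figure D2:**
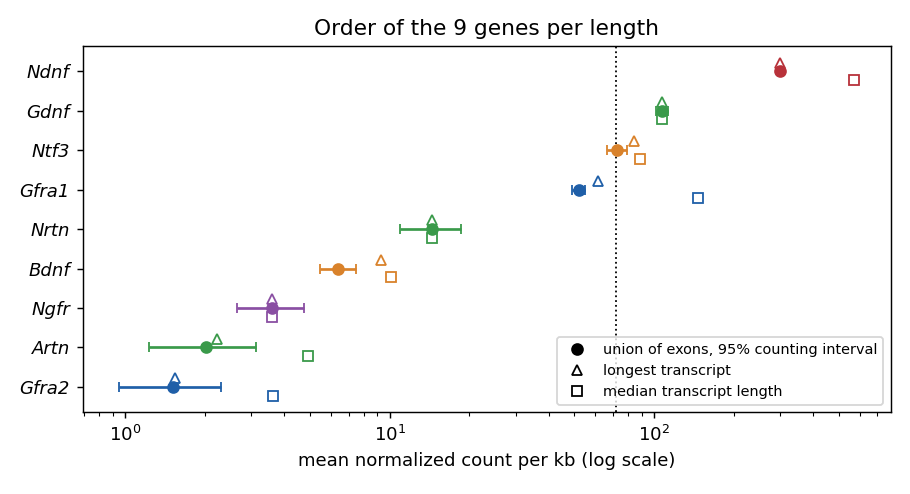
The x axis is the mean normalized count per kilobase on a log scale for the 9 genes, with filled circles and bars for the union of exons with its 95% counting interval, open triangles for the longest transcript and open squares for the median transcript length. Gfra1 moves most with the length, from 51.9 to 147, and the dotted line is the median of all genes at 71.9.

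Values for single libraries are not listed in the table, but for rare transcripts they are held in its digits. A mean over 4 libraries is a sum of whole reads, each worth 1 fixed amount per library. All 4466 means under 10 were sums of this kind to within 5.2e-12, which is the rounding of the file, and they gave size factors of 1.07, 1.05, 0.95 and 0.93 for the 4 libraries. These size factors differed little between libraries, and the normalized counts of all genes sum to a mean of 22404230 per library. The total reads of each library are not known here. For 6 of the 9 genes exactly 1 set of whole reads gives the printed mean. The sets for Gfra1 and Gdnf were 4 and 3 in number, so their reads per library are not settled, and Ndnf is too abundant to be solved. In each of the 4 sets for Gfra1 the reads were uneven between libraries. The most even of these sets held 157, 149, 360 and 440 reads. The libraries are numbered here from 1 to 4 by falling size factor. These numbers are not replicate numbers, and nothing in the means says which libraries are control and which are lamin B1 KD, so no comparison of groups is made from them.

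Of these 6 genes, Ntf3 had the most pairs of libraries that differed beyond counting error, 4 of 6. Its reads in libraries 1 to 4 were 66, 50, 159 and 207, which are normalized counts of 61.4, 47.4, 167 and 222. Libraries 1 and 2 were low and libraries 3 and 4 high, and the 95% Poisson intervals of the first pair (47.5 to 78.2 and 35.2 to 62.5) did not overlap those of the second (142 to 195 and 192 to 254). The highest library was 4.68 times the lowest. Among 1093 genes with a mean from 60 to 150, the median of this ratio was 1.54 and its 95th percentile 2.98, and 12 genes (1.1%), Ntf3 included, had a ratio at least as large as that of Ntf3. Since Ntf3 was picked with earlier results of these data known, this share is a description and not independent of that choice. The pooled mean of 124 lies between the pairs and describes none of the 4 libraries. The ratio of Ntf3 over Bdnf per kilobase was 4.79, 3.94, 13.7 and 32.6 in libraries 1 to 4.

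Some markers of other cell types also differed between these libraries. Of 20 markers of other cell types 13 have a row and 12 have recovered reads. Of these 12, 2 had at least 4 of 6 pairs of libraries apart, while 5 had 0. The share of all genes with as many pairs apart was not computed, so this count has no background. The first is Pdgfra, a receptor kinase that marks fibroblasts, with 23, 19, 49 and 51 reads and normalized counts of 21.4, 18.0, 51.4 and 54.6. Its ratio of highest to lowest was 3.03. Among 1379 genes with a mean from 20 to 60 the median of this ratio was 1.84 and its 95th percentile 4.17. The second is Tek, the angiopoietin receptor of endothelial cells, with 122, 133, 211 and 209 reads and normalized counts of 114, 126, 221 and 224. Both were lower in libraries 1 and 2 than in libraries 3 and 4, as Ntf3 was, and their part in the difference of Ntf3 was not tested.

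Bdnf had 50, 46, 42 and 23 reads in libraries 1 to 4, or normalized counts of 46.5, 43.6, 44.1 and 24.6. Library 4 was the lowest, but its interval of 15.6 to 37.0 overlapped those of the other 3. A ratio of highest to lowest of 1.89 was reached or passed by 47.4% of 1379 genes with a mean from 20 to 60. Nrtn had 9, 10, 24 and 15 reads, or normalized counts of 8.38, 9.48, 25.2 and 16.1. For Nrtn 1 of the 6 pairs of libraries did not overlap, library 1 with an interval of 3.83 to 15.9 and library 3 with 16.1 to 37.5. Ngfr had 11, 10, 16 and 12 reads, or normalized counts of 10.2, 9.48, 16.8 and 12.8, and all of its intervals overlapped.

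The rarest genes had few reads in every library. Gfra2 had 7, 8, 6 and 1 reads, or normalized counts of 6.52, 7.59, 6.30 and 1.07. Artn had 9, 5, 5 and 1 reads, or normalized counts of 8.38, 4.74, 5.25 and 1.07. Library 4 held a single read of each, and its interval, with an upper end of 5.97, still overlapped that of every other library. Overlap of intervals is not a test of a difference, so these reads neither show nor exclude a difference between libraries.

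**Figure D3:**
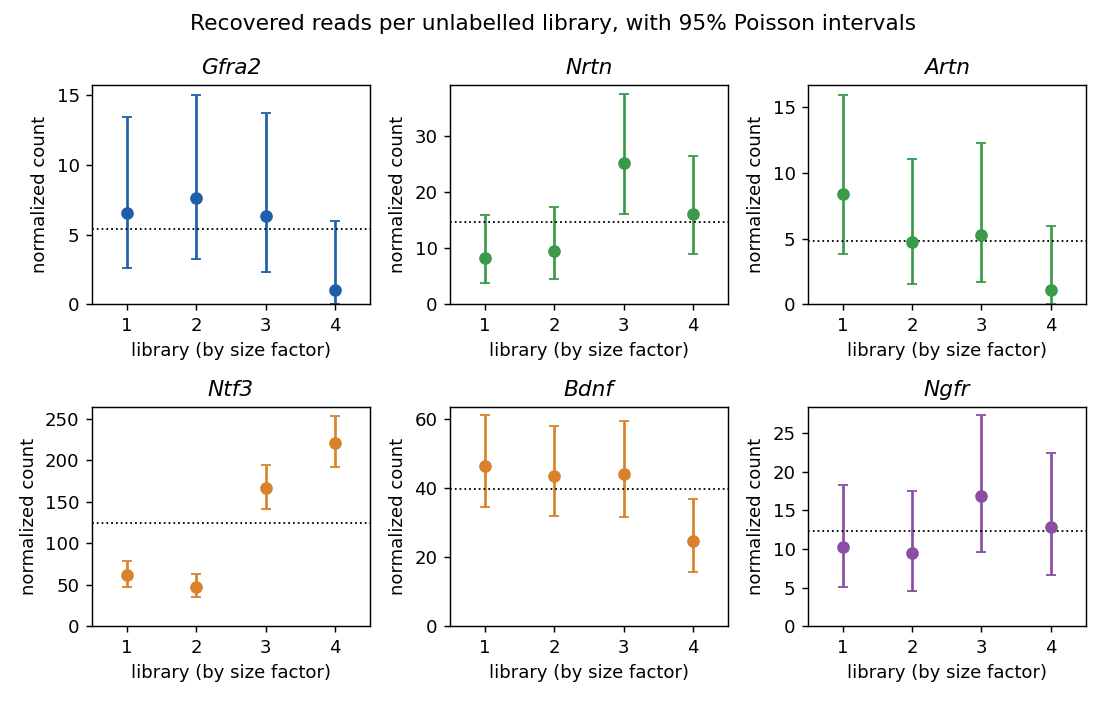
Each panel shows 1 gene with the normalized count of each of the 4 unlabelled libraries on the y axis (from 0), bars for the 95% Poisson interval of the reads and a dotted line at the authors' mean. Ntf3 splits into libraries 1 and 2 at 61.4 and 47.4 and libraries 3 and 4 at 167 and 222, while all intervals overlap for Bdnf, Ngfr, Gfra2 and Artn.

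The other coreceptors and ligands of the family with a row were rarer than Gfra1 and Gdnf. Of 13 genes listed for the GDNF family 11 have a row, and 3 of them were at or above the median of all genes. Those 3 are Gdnf, Gfra1 and Ncam1, the neural cell adhesion molecule that can also bind GDNF, which had a mean of 1065. The coreceptor Gfra3 had a mean of 2.27, the ligand Pspn (persephin) 3.59, and Gdf15, a distant relative that signals through RET with GFRAL, 50.5. Of 15 neurotrophin genes 10 have a row. The neurotrophin Ntf5 had a mean of 48.3 from 193 reads. The lowest total with a row was 5 reads.

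Of the 4 listed sorting receptors with a row, 3 were more abundant than p75. Sort1 (sortilin), which binds proneurotrophins together with p75, had a mean of 3717, Sorl1 3846 and Sorcs2 2199, against 12.3 for Ngfr, and per kilobase these were 491, 340 and 250 against 3.58. Sorcs3, of the same family, was rarer than Ngfr, with a mean of 1.22 and a level of 0.17 per kilobase. Nradd, a p75 homolog, stood at 299 per kilobase, and Maged1, which encodes a cytoplasmic partner of p75, at 2608. Of 7 genes for proneurotrophin processing 5 have a row, led by Plat, the tissue plasminogen activator, with a mean of 4260, and by the convertases Pcsk7 with 1654 and Furin with 851. Of 13 other neurotrophic factors 12 have a row and 6 were at or above the median of all genes. Ndnf had the highest mean of this list. Per kilobase, Metrnl (1240), Manf (573) and Nenf (508) were higher than Ndnf. Of 13 adaptors downstream of RET and the Trk receptors 12 have a row and 10 were at or above the median, led by Ptpn11, a tyrosine phosphatase, with a mean of 5987.

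**Figure D4:**
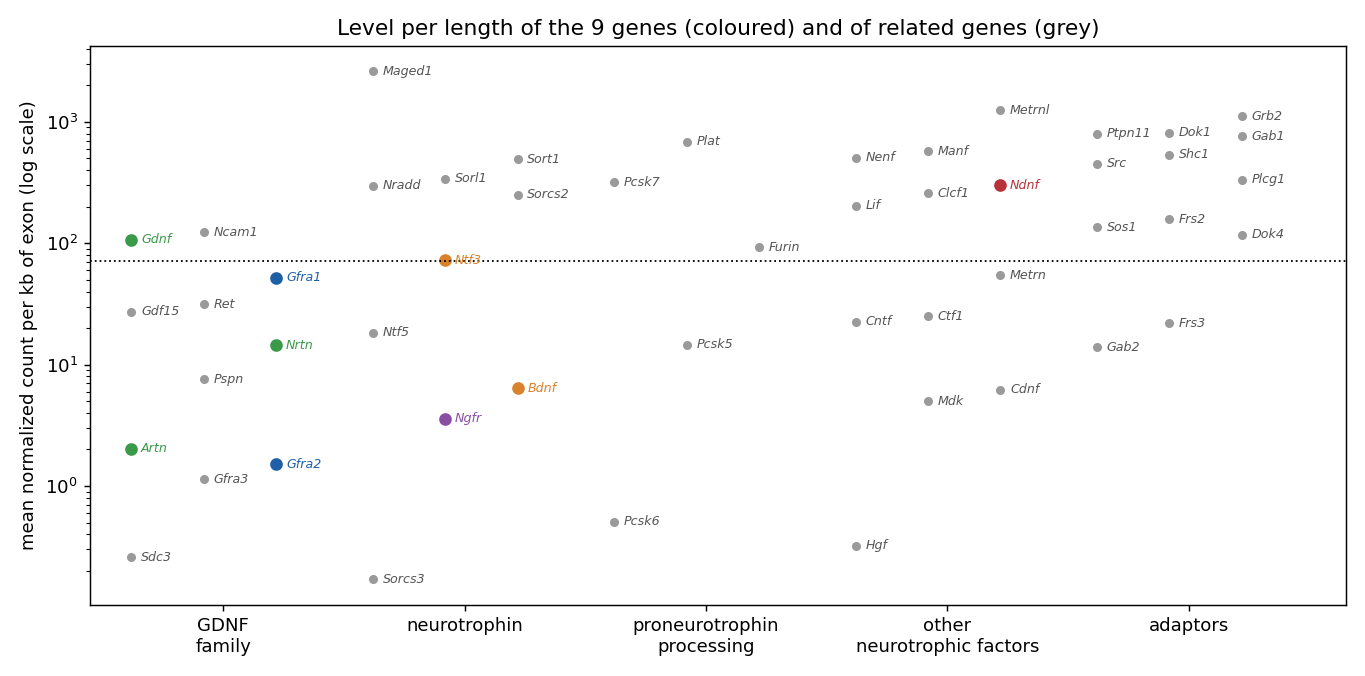
The y axis is the mean normalized count per kilobase of exon on a log scale and each column is 1 list of genes, with the 9 genes coloured by role and related genes in grey. Gfra1 and Gdnf stand above the other coreceptors and ligands of their family, Ngfr at 3.58 lies far below Sort1 at 491, and the dotted line is the median of all genes at 71.9.

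Markers of the labelled cell type were present in part. Of 8 alveolar type II markers 5 have a row, and Sftpb, Abca3, Nkx2-1 and Sftpc had means of 6189, 2546, 2667 and 893, while Sftpa1 had 1.57 from 6 reads. All 6 epithelial markers have a row and 2 were at or above the median of all genes, Krt8 with a mean of 9525 and Cdh1 with 1463. Epcam had 77.4, Krt18 12.9, Cldn4 3.32 and Cldn7 2.52. Among 6 fibroblast markers the summed level was 12442, nearly all of it from Dcn (12256), and 3 of 4 endothelial, 1 of 4 leukocyte and 3 of 6 Schwann and neuronal markers had rows with summed levels of 193, 51.4 and 47.0. Their part in the levels of the 9 genes was not tested. In bulk RNA fewer cells that express a gene and less RNA per cell cannot be told apart.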

How the data were processed

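Polyadenylated RNA of 2 control and 2 lamin B1 KD samples was read on an Ion Torrent instrument. Reads were trimmed (Reaper), aligned to mm10 (STAR) and counted by the authors, who normalized the counts with DESeq2. Versions, counting program and strand handling are unknown here, as is whether replicates were separate cultures. The deposited signal is the authors' mean over all libraries of counts divided by size factors. The authors' fold changes and p-values in the table were not used. No column holds a single library, so the planned test between groups was not run. Of 18018 rows, 112 lack a mean and were left out.

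Members and lists were chosen with earlier results of these data known. All members, listed receptors and ligands, leading list genes and markers are named. Lengths (union of exons), positions and overlaps came from GENCODE M21 on GRCm38, the assembly of mm10, by identifier (98.8% of genes). BLAST 2.17.0 (identity of 95%, 100 bases or more) found no similar transcript beyond the antisense genes of Gfra1 and Bdnf. Whole reads were solved from means of 12 significant digits, up to a mean of 400, within 1 unit of the last digit (Python 3.11.15, numpy 2.4.6, scipy 1.17.1), and the method was tested on simulated data. Intervals (95%) cover counting error only, and reads carry no molecular identifiers. Alternatives were other backgrounds and transcript lengths. Promoter windows are from RefSeq.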

Additional observations from a re-analysis of the deposited data

How the results depend on the processing

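The position of the 9 genes among all genes depends on which genes are counted. The median share of genes below them was 36.1% over all genes, 31.1% over genes with a mean of at least 2, 14.8% over genes with a mean of at least 10 and, chosen after seeing the data, 23.3% over protein coding genes. Of the 9 genes 3 (Ndnf, Gdnf and Gfra1) were at or above the median of all genes. Per kilobase there were also 3, but with Ntf3 in place of Gfra1. The count was 2 over genes with a mean of at least 2 and 1 (Ndnf) over protein coding genes. These last 2 backgrounds were chosen after seeing the data for this count. The median level per kilobase was 14.4 under each length, but 3 of the 9 single values lay outside their counting interval with the longest and 6 with the median transcript length. The 6 genes with 1 solution were also 6 with a tolerance of 1.5 units of the last digit in place of 1, added after seeing the data. No paired analysis was possible because the table holds a mean over all libraries and no library values with labels. For the same reason tests between the groups and other normalizations were not run. Chosen after seeing the data, leaving out each recovered library in turn gave a ratio of Ntf3 over Bdnf per kilobase from 7.45 (without library 4) to 14.2 (without library 2), against 11.4 over all 4. Leaving out a library was not run for other values. Levels of Gfra2 and Artn are limited by 22 and 20 reads.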

Other observations

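The recovered reads of the unlabelled libraries fall into separate pairs for some genes and not for others. For Ntf3, normalized counts of 61.4 and 47.4 in libraries 1 and 2 stood apart from 167 and 222 in libraries 3 and 4, with 4 of the 6 pairs of libraries not overlapping in their 95% Poisson intervals. Pcsk5, a proprotein convertase, was chosen after its values were seen. It fell into the same pairs in the opposite direction, with 258 and 288 in libraries 1 and 2 and 146 and 153 in libraries 3 and 4 (4 of 6 pairs not overlapping). The fibroblast marker Pdgfra (21.4 and 18.0 against 51.4 and 54.6) and the endothelial marker Tek (114 and 126 against 221 and 224) fell into the same pairs in the direction of Ntf3, with 4 of 6 pairs not overlapping for each. For Gab2, an adaptor downstream of receptor kinases, library 1 stood at 141 and the others at 83.4, 67.2 and 52.5 (3 of 6 pairs not overlapping). Ntf5, the neurotrophin closest to Bdnf in level, had 45.6, 41.7, 50.4 and 55.7, with 0 of 6 pairs apart. Pspn, a ligand of the GDNF family, had 4, 9, 1 and 1 reads and Gfra3, the coreceptor of artemin, had 1, 3, 2 and 3. With so few reads the intervals were wide, and 0 of 6 pairs were apart for each. The share of all genes that fall into these pairs was not computed, so the pairs cannot be called particular to the genes named here. Which of these libraries are control and which are lamin B1 KD is not known from the values used here, and no cause of the pairs was tested.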
